A study of Mus musculus with 26 samples.

Results

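The 9 genes described here are Apobec2, Arl4d, Ccdc64, Igfbp3, Llgl2, Slco4a1 and Sntg2, which were higher, and Cyp4f14 and Cybb, which were lower, in retinas of rd10 mice given either DZNep or Romidepsin. They were taken by symbol from a table of 37991 Ensembl genes, and each symbol had 1 identifier. Because they were picked for these changes, their values in the DZNep and Romidepsin experiments are a description and carry no test. The 3 other experiments of the study share no library with these and were tested.

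The strain rd10 (B6.CXB1-Pde6brd10/J) carries a mutation in Pde6b, the rod phosphodiesterase gene, and loses its rods in the weeks after birth. Mice of both sexes were injected intraperitoneally from postnatal day (PN) 9 and retinas were taken at PN24, so every group, controls included, had the rd10 mutation and the injections. The labels give the treatment of the controls as none, and the protocol gives them saline. Whole retinas came from 4 control and 2 DZNep samples, 3 control and 3 Romidepsin, 3 control and 3 UNC1999, and 2 control and 2 UNC0642 samples, each treatment with controls of its own. The study used DZNep and UNC1999 as inhibitors of EZH2, the histone H3 lysine methyltransferase of the Polycomb complex, and calls UNC1999 the more specific. UNC0642 inhibits the methyltransferases G9a and GLP, and Romidepsin inhibits histone deacetylases. UNC1999 was given in a diluent with DMSO, PEG300 and Tween-80. The study's text names saline for the sequenced controls and diluent alone for the mice of its stained sections, and if the sequenced controls had saline, drug and diluent cannot be told apart there. The last experiment had 2 control and 2 GSK2879552 (LSD1 inhibitor) samples of rods sorted by flow cytometry from the cross of rd10 with mice that carry Nrl-EGFP, a transgene with a rod promoter. The sorted rods were made into libraries with another kit than the retinas.

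As background, histone methylation by EZH2 and the removal of acetyl groups by histone deacetylases both go with a closed chromatin, so that inhibitors of either enzyme class can raise the transcription of silent genes, by different routes. The 9 genes are not known as one pathway. Llgl2 belongs to the basolateral polarity machinery, Sntg2 to the dystrophin-associated scaffold, Ccdc64 (BICD-related) links vesicles to dynein, and Arl4d is a small GTPase of the ARF family at the plasma membrane. Slco4a1 carries organic anions, thyroid hormone among them, Apobec2 is a muscle-rich relative of the cytidine deaminases, and Igfbp3 is a secreted protein that binds insulin-like growth factors. Cyp4f14 is a cytochrome P450 that hydroxylates leukotriene B4 and related lipids, and Cybb is the catalytic subunit of the phagocyte NADPH oxidase, made in the retina by microglia and macrophages. Rods are the main cell type of the mouse retina and are lost in rd10 while microglia become active. In such bulk samples, fewer cells of a type and less RNA per cell cannot be told apart.

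In NCBIM37, the build of the counts, all 9 are protein-coding genes, and by GENCODE M1 none shares exon bases with another gene. Igfbp3 (chr11:7106089-7113926, minus strand), Arl4d (chr11:101526855-101529146, plus) and Llgl2 (chr11:115685363-115717094, plus) lie on chromosome 11, and Apobec2 (chr17:48558556-48572053, minus) and Cyp4f14 (chr17:33042016-33054023, minus) on chromosome 17. Slco4a1 lies at chr2:180190950-180209572 (plus), Ccdc64 at chr5:116098184-116181630 (minus), Sntg2 at chr12:30859347-31058240 (minus) and Cybb at chrX:9012378-9064897 (minus).

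Promoter windows, the 250 bases before each annotated start in the RefSeq table of GRCm38.p6, were found for 7 of the 9 genes, in 12 windows, and not for Ccdc64 and Llgl2. They are shown for 3 genes that were higher together and for Cybb, with capitals for any of 5 short motifs read on either strand: the CRX core TAATCC (6.25% of the 32851 windows of all genes), the NRL half-site TGCTGA (16.1%), the PU.1 core GAGGAA (23.3%), the TATA box TATAAA (12.4%) and the SP1 GC box GGGCGG (32.7%).
Slco4a1 start 1, chr2:180455995-180456244, plus strand: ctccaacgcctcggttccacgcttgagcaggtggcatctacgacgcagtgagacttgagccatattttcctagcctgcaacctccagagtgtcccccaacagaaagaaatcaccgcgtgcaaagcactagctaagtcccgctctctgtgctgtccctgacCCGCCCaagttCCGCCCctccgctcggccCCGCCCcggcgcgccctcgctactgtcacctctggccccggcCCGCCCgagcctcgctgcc
Slco4a1 start 2, chr2:180460728-180460977, plus strand: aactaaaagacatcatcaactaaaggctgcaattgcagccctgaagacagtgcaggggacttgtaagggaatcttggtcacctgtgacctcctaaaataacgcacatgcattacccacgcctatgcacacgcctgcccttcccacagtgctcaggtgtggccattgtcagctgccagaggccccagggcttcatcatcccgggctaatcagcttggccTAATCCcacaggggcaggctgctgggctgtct
Apobec2, chr17:48432729-48432978, minus strand: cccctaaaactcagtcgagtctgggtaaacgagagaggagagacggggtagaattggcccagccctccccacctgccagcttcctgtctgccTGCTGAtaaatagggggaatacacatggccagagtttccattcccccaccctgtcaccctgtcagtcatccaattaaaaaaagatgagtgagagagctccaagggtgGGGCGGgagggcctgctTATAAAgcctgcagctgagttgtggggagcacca
Sntg2 start 1, chr12:30373377-30373626, minus strand: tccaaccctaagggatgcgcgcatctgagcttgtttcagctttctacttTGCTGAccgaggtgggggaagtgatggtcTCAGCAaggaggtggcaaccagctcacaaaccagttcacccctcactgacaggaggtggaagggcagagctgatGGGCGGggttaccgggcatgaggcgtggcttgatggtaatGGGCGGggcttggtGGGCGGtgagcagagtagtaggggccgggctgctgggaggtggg
Cybb, chrX:9469325-9469574, minus strand: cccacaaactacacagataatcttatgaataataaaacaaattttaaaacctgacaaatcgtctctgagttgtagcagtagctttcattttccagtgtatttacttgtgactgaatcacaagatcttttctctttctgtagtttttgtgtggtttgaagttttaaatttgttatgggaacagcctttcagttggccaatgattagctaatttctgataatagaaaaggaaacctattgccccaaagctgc
Slco4a1 start 1 had 4 GC boxes, at −90, −79, −61 and −19 from the start, and start 2 had the only CRX core of the 12 windows, at −32. Apobec2 held a TATA box at −34, a GC box at −51 and an NRL half-site at −158. Sntg2 start 1 held 3 GC boxes and 2 NRL half-sites, at −201 and −172, and its second annotated start lies 1 base away. Neither Arl4d, Igfbp3, Cyp4f14 nor Cybb held any of the 5 motifs, and PU.1 cores were found in 0 members. By base composition the windows differed widely, with 32 CpG in Igfbp3, 21 in Slco4a1 start 1, 16 in Arl4d and 1 in Cybb, against a median of 6 over all windows. A match gives only the letters present, and binding was not measured.

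Counts were scaled to library size (CPM) with TMM factors, on one scale for the 22 retina libraries and on another for the 4 of sorted rods. Retina libraries held 13732959 to 36354094 counted reads and rod libraries 7289460 to 19864491, so that 3 counts, taken as the floor, are worth 0.0825 to 0.412 CPM. One library stood apart. DZNep replicate 2 had 101 CPM summed over 13 lens markers, against at most 13.3 CPM in any other library. Without it, the 7 higher genes had log2 fold changes from 1.17 to 1.56 after DZNep, Cyp4f14 −1.11 and Cybb −1.75.

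The 9 genes were chosen by measured values, their calls in both experiments. A call needed an adjusted p under 0.05 by edgeR's quasi-likelihood test (Benjamini-Hochberg adjustment) and an absolute log2 fold change above 1. That was so for 281 of 16477 genes (1.71%) after DZNep and for 90 of 16049 (0.561%) after Romidepsin, the 9 genes among both by construction. Of 15907 genes tested in both, 14 were called in the same direction, 10 higher and 4 lower. The other 5 of these, Gramd2, Hk2, Nxnl2, Mpeg1 and Ms4a7, are not among the 9. At the edge of the fold threshold, Slco4a1 was the member nearest to it, with a smaller log2 fold change of 1.01. Gramd2, just inside it, had 1.00, and Col5a3 stood just outside at 1.00, or 0.998 before rounding. The Romidepsin calls rest on single libraries: 0 genes were called without control replicate 2, control replicate 3 or treated replicate 3, with 2208, 2526 and 2477 genes at an unadjusted p under 0.05, and 338 without treated replicate 1. With all libraries, the likelihood ratio test called 498 genes and DESeq2 387.

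All 9 genes had every treated library on one side of every control in both experiments, as had 46.1% of all genes after DZNep and 25.9% after Romidepsin. Since the genes were picked in these experiments, nothing is read from that count.

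**Figure D1:**
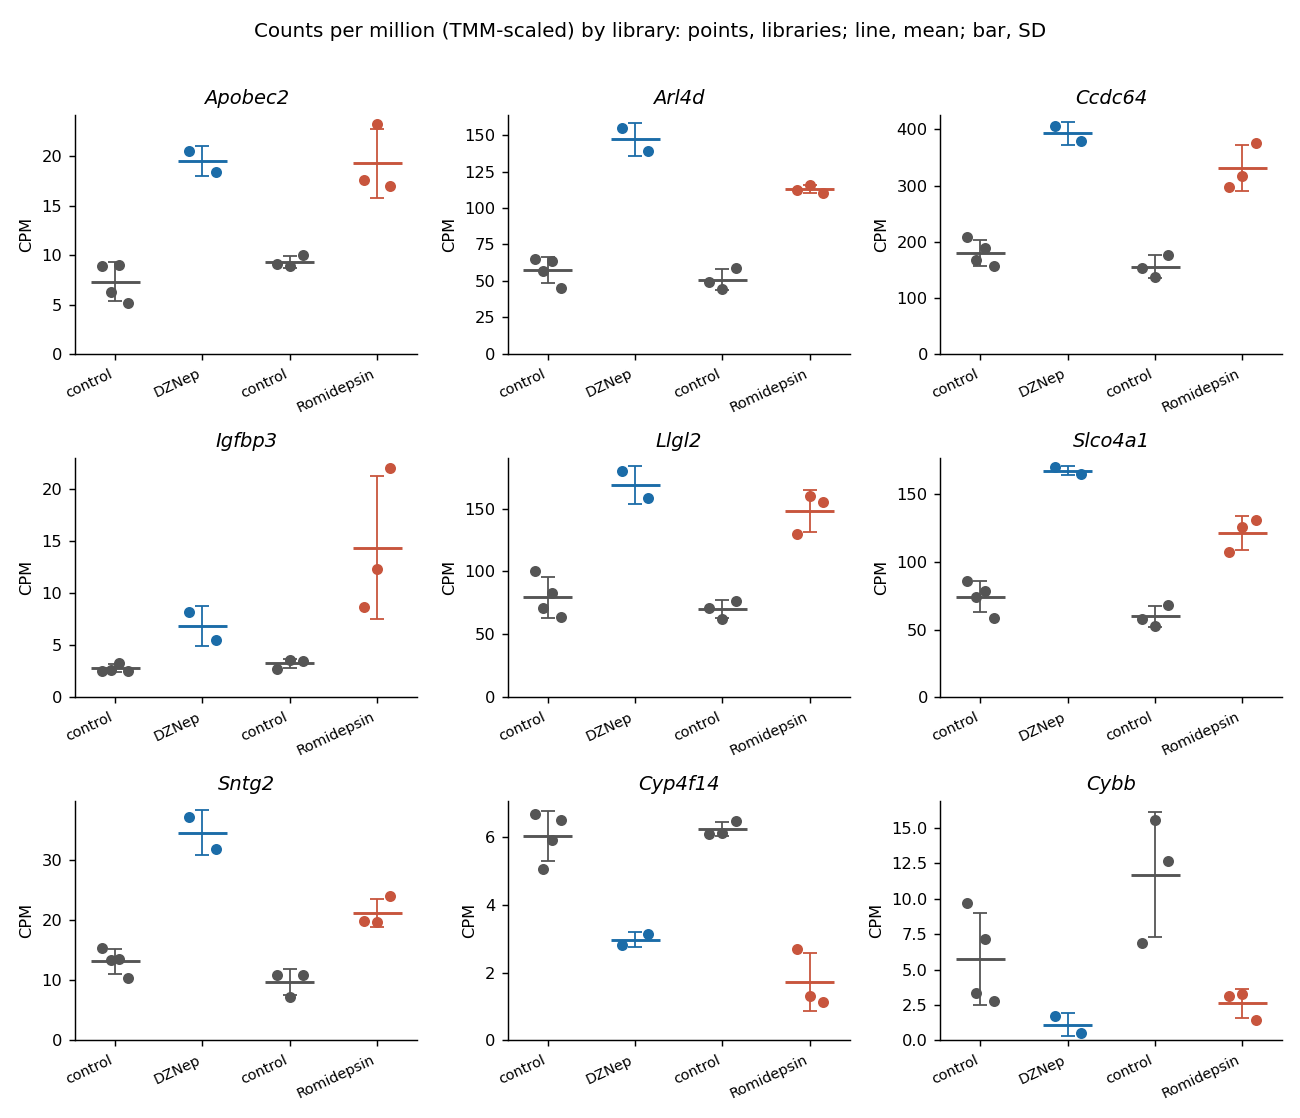
Level of each gene in CPM (y axis, from 0) by library in the DZNep and Romidepsin experiments. Points are libraries, lines group means and bars SDs, with controls in grey. In all 9 panels the treated points lie apart from the controls of the same experiment. Igfbp3 after Romidepsin, from 8.70 to 22 CPM, is the widest group of its panel.

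Slco4a1, the transporter, measured 85.8, 74.0, 78.6 and 58.5 CPM in the 4 DZNep controls and 170.0 and 165 CPM after DZNep. In the Romidepsin experiment it measured 58.1, 52.9 and 68.2 CPM in controls and 107, 126 and 131 CPM in treated retinas. The lowest treated library was thus above the highest control in each, and the fitted log2 fold changes were 1.17 (SE 0.116) and 1.01 (SE 0.136), or 2.25-fold and 2.02-fold.

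Llgl2, whose relative Llgl1 also acts in basolateral polarity, went from 100.4, 70.8, 82.7 and 63.4 CPM to 179.8 and 158 CPM with DZNep. With Romidepsin it went from 71.2, 62.2 and 76.6 CPM to 129, 159.9 and 155 CPM. The log2 fold changes, 1.09 (SE 0.147) and 1.07 (SE 0.130), were nearly the same size. Llgl1 itself had 0.10 (SE 0.0528, adjusted p = 0.190 by the quasi-likelihood test) after DZNep and 0.13 (adjusted p = 0.516) after Romidepsin.

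Sntg2, a syntrophin of the dystrophin scaffold, was a rarer transcript, at 15.3, 13.3, 13.5 and 10.4 CPM in DZNep controls and 37.0 and 31.8 CPM in treated retinas. Its Romidepsin values were 10.9, 7.21 and 10.9 CPM in controls and 19.9, 19.6 and 23.9 CPM in treated retinas. It stood 2.63-fold higher after DZNep (log2 fold change 1.39, SE 0.129) and 2.18-fold after Romidepsin (1.12, SE 0.197). Its closest paralogue Sntg1 went the other way, with log2 fold changes of −0.47 (adjusted p = 0.0150, quasi-likelihood test) and −0.52 (adjusted p = 0.257).

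Arl4d, which recruits the ARF6 exchange factor cytohesin-2 to the membrane, measured 65.4, 56.8, 63.4 and 45.3 CPM in DZNep controls against 155 and 139 CPM in treated retinas. After Romidepsin the 3 treated libraries lay close together, at 112, 116 and 111 CPM, above controls of 49.1, 44.5 and 58.9 CPM. The folds were 2.54 and 2.21. Cyth2, which encodes cytohesin-2, had a log2 fold change of 0.56 after DZNep (adjusted p = 0.000519 by the quasi-likelihood test). The paralogues Arl4a and Arl4c had 0.49 and −0.26 there. Of 7 other genes of the ARL4 and ARF6 list, 2 were higher and 1 lower at an adjusted p under 0.05 after DZNep. Of all genes, 22.7% passed there in either direction. After Romidepsin 0 of the 7 passed, with 0.39 for Arl4a and −0.12 for Arl4c.

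Ccdc64, the dynein adaptor, was the most abundant of the 9 in retina by CPM, at 208, 168, 189 and 156 CPM in DZNep controls and 407 and 379 CPM after treatment. Romidepsin libraries had 298, 317 and 377 CPM and their controls 154, 136 and 176 CPM. The log2 fold changes were 1.12 (SE 0.0969) and 1.08 (SE 0.145). Per kilobase of exon, however, Arl4d stood above it in the DZNep controls, at 41.8 ± 6.55 CPM per kb (SD, n = 4) against 30.4 ± 3.88 CPM per kb (SD, n = 4).

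Apobec2 measured 8.94, 6.25, 8.95 and 5.12 CPM in the DZNep controls and 20.6 and 18.4 CPM in the treated retinas, 2.67-fold higher, the largest fold of the 7 higher genes with DZNep. Romidepsin controls held 9.10, 8.88 and 10.0 CPM and treated retinas 17.6, 23.3 and 17.0 CPM, a 2.05-fold difference. The deaminase relative Apobec1, found in immune cells, was lower after DZNep, at −1.02 on the log2 scale (adjusted p = 0.00651, quasi-likelihood test). After Romidepsin it had −0.33 (adjusted p = 0.463, same test), and the groups overlapped.

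Igfbp3 was the least abundant of the 7 higher genes, at 2.52, 2.66, 3.33 and 2.56 CPM in DZNep controls and 8.22 and 5.49 CPM in treated retinas. After Romidepsin its 3 treated libraries were at 8.70, 12.4 and 22 CPM, all above controls of 2.74, 3.55 and 3.44 CPM. The log2 fold change was 2.14 (SE 0.339) with Romidepsin, the largest positive value among the 9, and 1.33 (SE 0.195) with DZNep, where it was 0.98 without treated replicate 1. Of the other 12 tested genes of this growth factor system, 3 were higher (Igf2, Igf1r and Insr) and 1 lower (Irs1) after DZNep. These 4 had an adjusted p under 0.05, with log2 fold changes from −0.28 to 0.31. Of all genes, 22.7% passed in either direction after DZNep. After Romidepsin 0 of the 12 passed.

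Cyp4f14 was lower in both experiments. It measured 6.66, 5.04, 5.91 and 6.48 CPM in DZNep controls and 2.81 and 3.12 CPM in treated retinas, and 6.09, 6.11 and 6.47 CPM in Romidepsin controls and 2.70, 1.32 and 1.14 CPM in treated retinas. In both, every treated library was below every control, and the difference was 2.06-fold with DZNep and 3.66-fold with Romidepsin. Of 7 other CYP4 genes tested, Cyp4f13 had a log2 fold change of 0.27 and Cyp4x1 of −0.51 after DZNep, both at an adjusted p under 0.05, and after Romidepsin 0 passed. Of all genes, 22.7% passed in either direction after DZNep.

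Cybb was the other lower gene. The 4 DZNep controls held 9.69, 3.36, 7.17 and 2.75 CPM and the 2 treated retinas 1.70 and 0.533 CPM. In the Romidepsin experiment the controls held 6.89, 15.5 and 12.7 CPM and the treated retinas 3.14, 3.30 and 1.45 CPM. The controls thus differed among themselves widely in both experiments, but none came down to a treated library. The log2 fold changes were −2.17 (SE 0.603) and −2.18 (SE 0.375). DZNep replicate 2 held 7 counts, and the DZNep value was −3.41 without treated replicate 1.

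The levels of cell type markers in the same libraries stand beside these values. The 21 rod markers had a median log2 fold change of 1.17 after DZNep, 21 of them higher at an adjusted p under 0.05 (22.7% of all genes passed in either direction), and their summed level went from 24387 to 40437 CPM to 72926 to 75738 CPM. After Romidepsin the median was 0.41, 0 of 21 passed (0.748% of all genes), 12 had an unadjusted p under 0.05 (19.4% of all genes), and the sums overlapped, 20346 to 31706 CPM in controls and 31551 to 41172 CPM in treated retinas. The highest rod marker reached a log2 fold change of 0.96 with Romidepsin, below the 1.01 of the lowest of the 7 higher genes, which had to pass 1 to be picked. Microglia and macrophage markers had medians of −0.82 (6 of 21 lower, 0 higher at an adjusted p under 0.05) and −0.77 (2 of 21 lower, 0 higher). Müller glia markers had −0.43 (11 of 12 lower, 0 higher) and −0.44 (0 of 12 passed). Markers of the retinal pigment epithelium had 1.16 (9 of 17 higher, 1 lower) and −0.83 (0 of 17 passed). Over all genes tested the median log2 fold change was near 0 in each comparison, between −0.01 and 0.00 in the 5 experiments. Gnat1 and Pde6b were detected in every library, and Aif1, Cx3cr1 and Csf1r in every retina.

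**Figure D2:**
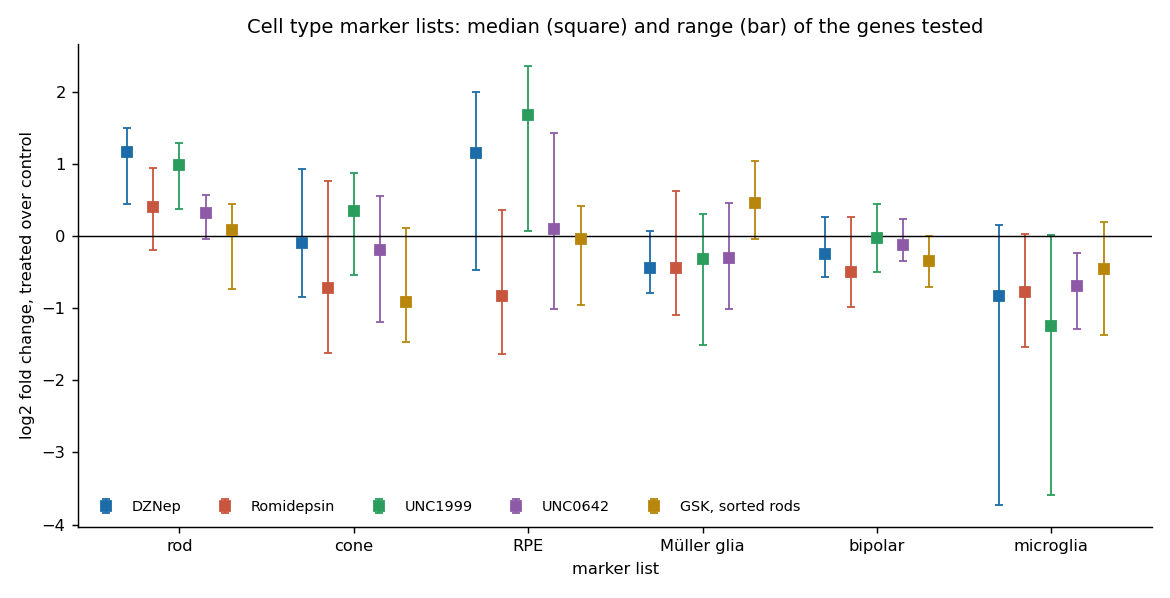
Log2 fold change, treated over control (y axis), of 6 lists of cell type markers in the 5 experiments. Squares are medians over the genes tested and bars run from the lowest to the highest gene. Rod markers stand at 1.17, 0.41 and 0.99 after DZNep, Romidepsin and UNC1999, and markers of the retinal pigment epithelium (RPE) at 1.16, −0.83 and 1.68.

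The 5 genes that stood higher in sorted rods than in retinas were also set against the summed rod markers of the same library, as CPM of the gene per 1000 CPM of rod markers. Nothing is read from these ratios after DZNep and Romidepsin, since the genes were picked for a high level in those treated libraries. After Romidepsin 4 of the 5 lay above their controls. Slco4a1 gave 2.15 to 2.60 in controls and 2.60 to 4.11 in treated retinas, the lowest treated library just above the highest control. Arl4d gave 1.86 to 2.19 and 2.73 to 3.67, Llgl2 2.42 to 3.06 and 3.14 to 5.07, and Sntg2 0.345 to 0.425 and 0.483 to 0.750. Apobec2 overlapped, with 0.316 to 0.437 and 0.428 to 0.739.

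After DZNep 2 of the 5 lay above their controls and 3 overlapped. Arl4d gave 1.62 to 1.87 in controls and 1.91 to 2.05 in treated retinas, and Apobec2 0.206 to 0.252 and 0.253 to 0.272. The overlapping ones were Slco4a1 (2.12 to 2.43 and 2.24 to 2.26), Llgl2 (2.33 to 2.60 and 2.17 to 2.37) and Sntg2 (0.379 to 0.437 and 0.436 to 0.489). After UNC1999 3 of the 5 lay below their controls. Arl4d gave 1.69 to 1.74 and 1.39 to 1.6 there, Llgl2 1.98 to 2.68 and 1.51 to 1.72, and Apobec2 0.262 to 0.430 and 0.219 to 0.251. Slco4a1 (2.37 to 3.41 and 2.09 to 2.51) and Sntg2 (0.468 to 0.488 and 0.435 to 0.539) overlapped. After UNC0642, Arl4d (2.35 to 2.55 and 2.68 to 2.87) and Sntg2 (0.533 to 0.601 and 0.622 to 0.680) lay above their controls. Slco4a1, Llgl2 and Apobec2 overlapped there. The ratio is a description without a test, was chosen after the values were seen, and leans on the most abundant rod transcripts. How many of all genes would lie apart by this ratio was not computed, so these counts are not read as a result about the members.

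Cybb set against the 21 microglia and macrophage markers, a list that does not hold it, gave 7.71 to 12.8 CPM per 1000 CPM in the DZNep controls and 1.93 to 5.52 after DZNep. It gave 10.0 to 15.2 and 2.77 to 5.72 in the Romidepsin experiment. Treated and control ranges were apart in both, from which nothing is read, since Cybb was picked for a low level in these treated libraries. The lowest single marker of the list had a log2 fold change of −3.73 after DZNep, below that of Cybb. The part of rod, microglia or other cell content in the changes of the 9 genes was not tested.

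In the UNC1999 experiment, whose contrast the rule did not use, the same 7 genes had positive log2 fold changes and the same 2 negative ones. Positive values were found for 49.6% of all genes. Slco4a1 rose, with an adjusted p under 0.05, and no member passed both thresholds, against 58 of 15775 genes (0.368%). Slco4a1 measured 106, 87.5 and 118 CPM in controls and 188, 169 and 165 CPM after UNC1999, a log2 fold change of 0.74 (SE 0.113, adjusted p = 0.0433 by the quasi-likelihood test). By that test 1 of 9 members and 0.602% of all genes had an adjusted p under 0.05. The adjusted p of Slco4a1 was no longer under 0.05 without any one library but control replicate 3, at 0.103 to 0.169 by the same test.

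Sntg2 had the largest positive value, with 15.1, 13.2 and 23.3 CPM in controls and 39.1, 30.2 and 37.7 CPM after UNC1999 (log2 fold change 1.05, SE 0.209, adjusted p = 0.0559). Arl4d measured 53.7, 47.0 and 84.0 CPM and 132, 92.9 and 112 CPM (0.86, SE 0.218, adjusted p = 0.0757). In both genes control replicate 3 was the highest control and still lay below every treated library. Ccdc64 measured 225, 193 and 269 CPM in controls and 409, 332 and 363 CPM in treated retinas. Llgl2 measured 83.3, 68.0 and 98.3 CPM and 136, 108 and 120.2 CPM, and Apobec2 12.1, 11.6 and 13.0 CPM and 19.7, 15.3 and 17.6 CPM. Their log2 fold changes of 0.68, 0.54 and 0.51 had adjusted p-values of 0.0535, 0.0804 and 0.0663 by edgeR's quasi-likelihood test. Each of these 6 genes had all 3 treated libraries above all 3 controls, as had 14.5% of all genes.

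Cybb measured 12.5, 9.68 and 2.69 CPM in the UNC1999 controls and 0.195, 1.78 and 1.06 CPM in the treated retinas, where replicate 1 held 3 counts. All treated libraries lay below all controls, as for 12.9% of all genes, and the log2 fold change was −2.97 (SE 0.678, adjusted p = 0.0632). Without treated replicate 2 it was −3.57, and without control replicate 1 −2.55. Per 1000 CPM of microglia markers it made 7.15 to 20.3 CPM in controls and 0.826 to 6.30 CPM after UNC1999, a description without a test. Those markers had a median log2 fold change of −1.24 and summed to 377 to 687 CPM in controls and 215 to 282 CPM in treated retinas. Control replicate 3, the lowest control in Cybb, had the lowest of these sums and the highest sum of rod markers among the controls. Without this library 806 genes were called, 3 members among them, against 58 genes and 0 members with all libraries. These were the highest counts over the single libraries left out, which gave 4 to 806 genes and 0 to 3 members. They are not read as a result about the members.

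Igfbp3 and Cyp4f14 did not separate the UNC1999 groups. Igfbp3 measured 5.73, 3.34 and 2.49 CPM and 3.51, 3.41 and 6.25 CPM (0.20, SE 0.359, adjusted p = 0.775). Cyp4f14 measured 2.07, 3.03 and 3.39 CPM and 2.86, 2.35 and 1.96 CPM (−0.26, SE 0.243, adjusted p = 0.552). Its UNC1999 controls, at 2.83 ± 0.685 CPM (SD, n = 3), were below the 6.02 ± 0.729 CPM (SD, n = 4) of the DZNep controls, with no overlap. By library name these groups are of different series. The UNC0642 controls, of the same series as DZNep, were also below the DZNep controls without overlap, at 3.29 ± 0.965 CPM (SD, n = 2). At an unadjusted p under 0.05, 7 of 9 members and 23.6% of all genes passed in the UNC1999 experiment. The likelihood ratio test gave 7 of 9 members an adjusted p under 0.05 against 10.4% of all genes, and DESeq2 7 of 9 against 9.23%, with Sntg2 and Cybb past both thresholds by either, where 2.97% and 2.24% of all genes were. Rod markers had a median log2 fold change of 0.99 here, with 0 of 21 at an adjusted p under 0.05 and 19 at an unadjusted one. Their summed level went from 27081 to 49789.7 CPM to 67057 to 89782 CPM. RPE markers had a median of 1.68, with 10 of 17 higher and 0 lower at an adjusted p under 0.05, against 0.602% of all genes. The part of rod or RPE content in these values was not tested.

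**Figure D3:**
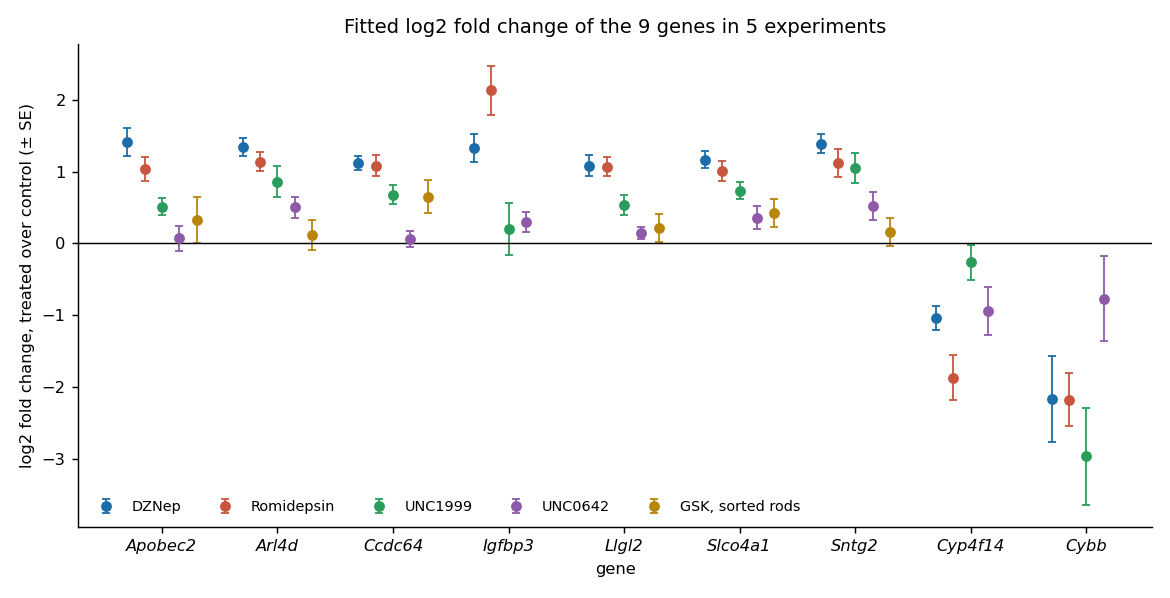
Fitted log2 fold change, treated over control, with its SE (y axis) for the 9 genes (x axis) in the 5 experiments, by colour. After UNC1999 the values run from −2.97 for Cybb to 1.05 for Sntg2. Igfbp3, Cyp4f14 and Cybb have no point in sorted rods, where they were too low to be tested.

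After UNC0642 the same signs were found, 7 positive and 2 negative, where 49.7% of all genes were positive, and by edgeR's quasi-likelihood test 0 of 9 members and 0 of 16321 genes had an adjusted p under 0.05. At an unadjusted p under 0.05 there were 3 members, against 14.7% of all genes. The likelihood ratio test called 34 genes (0.208%) and DESeq2 4 (0.0245%), and neither called a member. Arl4d measured 29.1 and 27.4 CPM in the control pair and 34.2 and 46.5 CPM after UNC0642 (log2 fold change 0.51, SE 0.147, adjusted p = 0.299). Sntg2 measured 6.86 and 6.23 CPM and 8.11 and 10.8 CPM (0.52, SE 0.192, adjusted p = 0.328). Cyp4f14 measured 2.61 and 3.97 CPM and 1.40 and 2.04 CPM (−0.94, SE 0.333, adjusted p = 0.319). These 3 are the members with an unadjusted p under 0.05, and in each the 2 groups did not overlap.

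Apobec2 stayed between 5.63 and 6.12 CPM in all 4 libraries (log2 fold change 0.07, SE 0.170) and Ccdc64 between 119 and 147 CPM (0.06, SE 0.11). Llgl2 had 0.15, Igfbp3 0.30 and Slco4a1 0.36, with adjusted p-values of 0.424, 0.372 and 0.346 by the quasi-likelihood test. Cybb overlapped, at 29.5 and 13.1 CPM in controls and 19.4 and 5.17 CPM in treated retinas. Its log2 fold change of −0.77 (SE 0.592, adjusted p = 0.535) was −0.07 without control replicate 1 and −2.05 without treated replicate 1. Per 1000 CPM of microglia markers Cybb made 13.0 to 20.2 CPM in controls and 8.72 to 20.4 CPM after UNC0642, which overlapped. Groups were apart for 7 of 9 members, where 52.1% of all genes were. The UNC0642 controls also had the lowest rod sums of the 4 retina control groups, 11413 to 11690.4 CPM, and the highest Cybb, 21.3 ± 11.6 CPM (SD, n = 2).

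Whether UNC1999 moved the members more than UNC0642 was tested as the difference of the 2 effects, each against its own controls. By the quasi-likelihood test 0 of 9 members and 0 of 16774 genes had an adjusted p under 0.05. An unadjusted p under 0.05 was found for 2 members, Ccdc64 and Apobec2, against 17.0% of all genes, and the likelihood ratio test and DESeq2 called 65 (0.388%) and 21 (0.125%) genes and 0 members. The difference was 0.64 (SE 0.206, adjusted p = 0.230) for Ccdc64 and 0.46 (SE 0.187, adjusted p = 0.269) for Apobec2 on the log2 scale. The largest difference was that of Cybb, −2.15 (SE 1.07, adjusted p = 0.334). It ran from −2.88 without UNC0642 control replicate 1 to −0.88 without UNC0642 treated replicate 1.

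**Figure D4:**
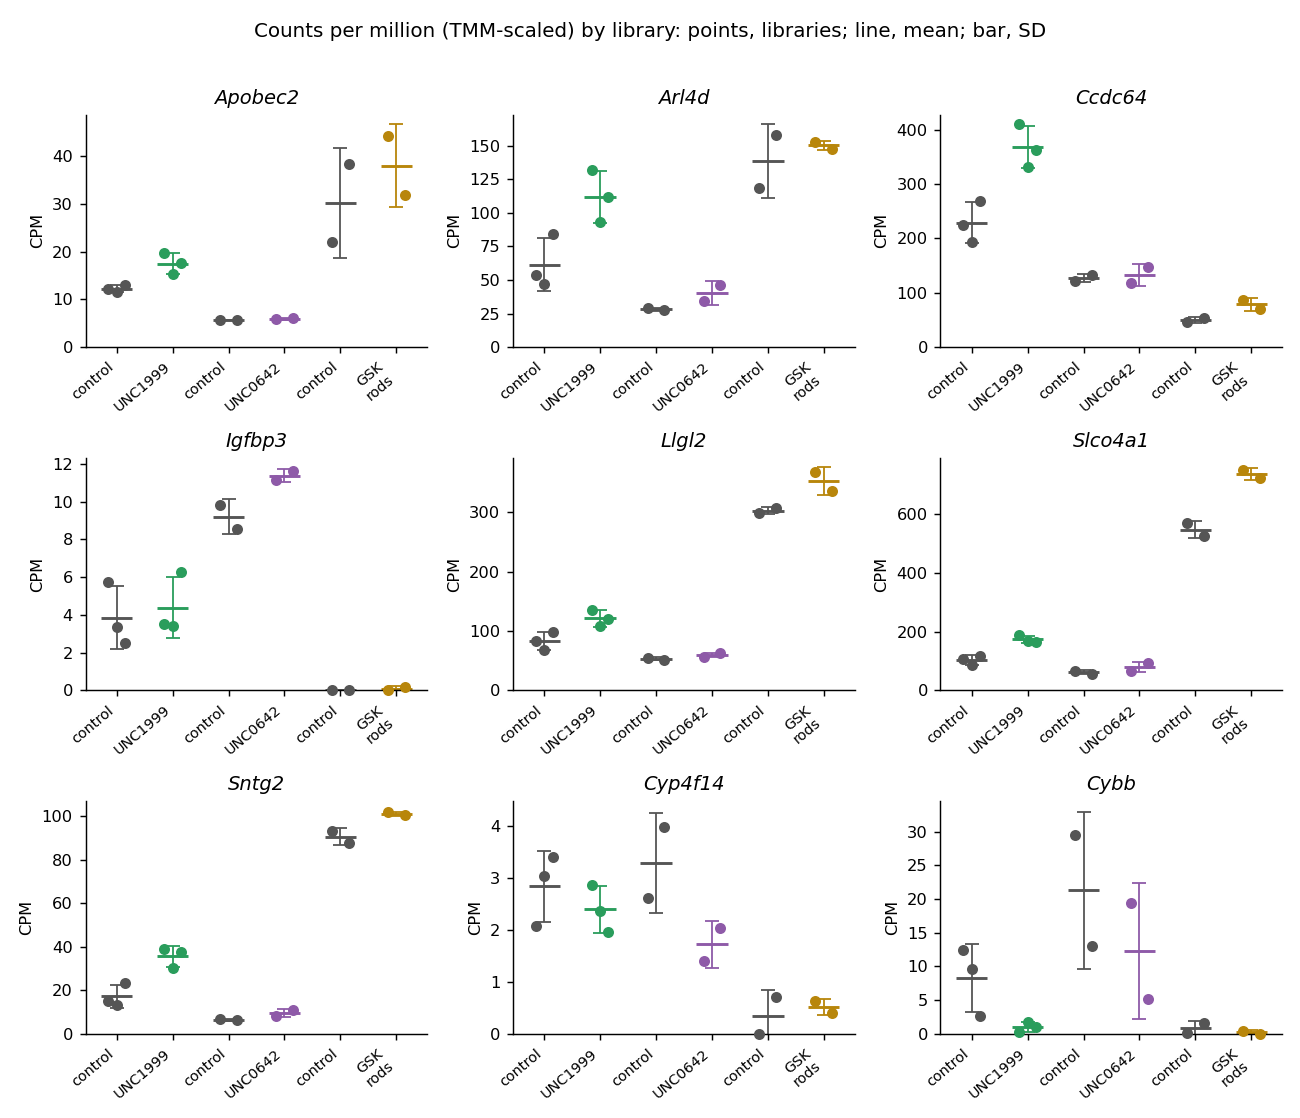
Level of each gene in CPM (y axis, from 0) by library in the UNC1999, UNC0642 and GSK (sorted rods) experiments. Points are libraries, lines group means and bars SDs, with controls in grey. Rods were scaled on their own and made with another kit. Slco4a1 lies at 527 to 569.5 CPM in control rods, and Igfbp3 at 0 in both.

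Sorted rods divided the 9 genes. Slco4a1 measured 569.5 and 527 CPM in the control rods, 7.22 times the mean of the 12 control retinas, and Sntg2 93.4 and 87.7 CPM, 7.43 times. Llgl2 stood at 4.11, Apobec2 at 3.44 and Arl4d at 2.66 times the retina mean. For comparison, the rod genes Pde6b and Gnat1 stood at 9.37 and 3.80 times. Ccdc64 was lower in rods, at 46.7 and 53.9 CPM or 0.284 times the retina mean.

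The other 3 genes were near the floor in rods. Igfbp3 had 0 and 0 counts in control and 0 and 2 in treated rods, Cyp4f14 0 and 12 and 12 and 4, and Cybb 1 and 28 and 9 and 0. A count of 0 allows up to 0.151 to 0.412 CPM in these libraries. Microglia markers summed to 72.0 to 94.7 CPM in the rods. Cone markers, a list that shares Grk1 with the rod markers, summed to 5091 to 6790 CPM in control rods. They summed to 3857 to 4373 CPM in treated rods and to 2402 to 4232 CPM over the retina controls. Which cells gave a member's level in the sorted samples was not tested. Since kit, sorting and strain differ between rods and retinas, these ratios were not tested. Per kilobase of exon, Slco4a1 led in control rods with 114 ± 6.28 CPM per kb (SD, n = 2), followed by Arl4d with 100.2 ± 20.1 and Llgl2 with 63.4 ± 1.07, while in the DZNep controls Arl4d led.

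GSK2879552 gave positive log2 fold changes for the 6 members that could be tested in rods, where 48.8% of all genes were positive, and by the quasi-likelihood test 0 of 6 members and 0 of 14478 genes had an adjusted p under 0.05. Only Ccdc64 had an unadjusted p under 0.05, against 4.91% of all genes, and the likelihood ratio test called 68 genes (0.47%) and DESeq2 47 (0.325%), with 0 members. Ccdc64 measured 46.7 and 53.9 CPM in control rods and 87.6 and 70.3 CPM after GSK2879552 (log2 fold change 0.65, SE 0.229, adjusted p = 0.984). Slco4a1 measured 752 and 723 CPM after GSK2879552 (0.43, SE 0.196, adjusted p = 0.987), above both controls. Llgl2 and Sntg2 also lay above their controls, by 0.22 and 0.16, while Apobec2 and Arl4d overlapped. Groups were apart for 4 of 6 members, where 33.2% of all genes were.

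Across the 8 retina groups, the order of mean levels differed between genes. Slco4a1 and Sntg2 were highest after UNC1999 and then after DZNep. Slco4a1 stood at 174 ± 12.5 CPM (SD, n = 3) and 167 ± 3.48 CPM (SD, n = 2) there, and Sntg2 at 35.7 ± 4.77 CPM (SD, n = 3) and 34.4 ± 3.73 CPM (SD, n = 2), and these neighbours overlapped. Arl4d was highest after DZNep, apart from the next group. Apobec2, Llgl2 and Ccdc64 were also highest after DZNep, but overlapped with the group that followed. Igfbp3 broke the pattern, with its highest mean after Romidepsin, followed by UNC0642-treated and UNC0642 control retinas at 11.1 and 11.6 and 9.85 and 8.54 CPM, above both DZNep-treated libraries. Cybb ran from 21.3 ± 11.6 CPM (SD, n = 2) in UNC0642 controls to 1.01 ± 0.793 CPM (SD, n = 3) after UNC1999, and 7 of its 7 pairs of neighbours in that order overlapped. Cyp4f14 was highest in the Romidepsin and DZNep controls and lowest after Romidepsin. By library name, UNC1999 formed another series than DZNep, Romidepsin and UNC0642, and each experiment had its own controls. Levels set across experiments are a description.

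In the phagocyte NADPH oxidase and NOX list, which holds Cybb, 8 of 9 genes tested had negative values after DZNep and 8 of 9 after Romidepsin, but beside Cybb 0 passed an adjusted p under 0.05. The partner subunit Cyba had log2 fold changes of −0.54 (adjusted p = 0.112) and −0.45 (adjusted p = 0.381), and the cytosolic subunit Ncf1 −0.76 and −0.91. Ncf4 had −0.26 and −0.79, and none of these values had an adjusted p under 0.05 by the quasi-likelihood test. After UNC1999 all 8 tested genes of the list were negative, with a median of −1.66 beside 0.00 over all genes. There Ncf1 had −1.82 (SE 0.382, adjusted p = 0.0582) and Cyba −1.08 (SE 0.296, adjusted p = 0.0860), and 0 of 8 passed an adjusted p under 0.05 while 7 had an unadjusted p under 0.05, against 23.6% of all genes. After UNC0642 0 of 9 passed either, though all 9 were negative (median −0.17).

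**Figure D5:**
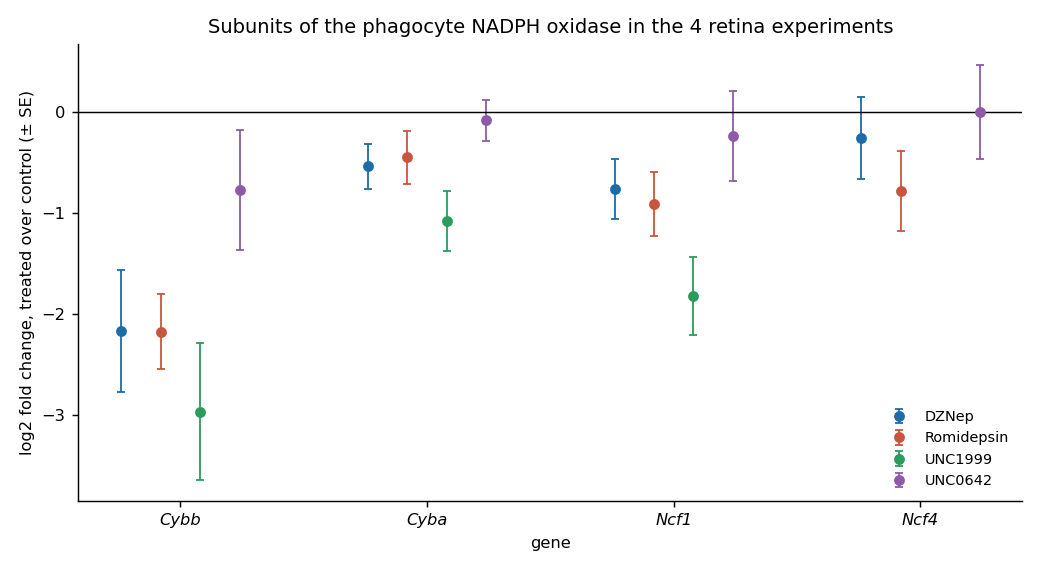
Fitted log2 fold change, treated over control, with its SE (y axis) for 4 subunits of the phagocyte NADPH oxidase (x axis) in the 4 retina experiments, by colour. Cybb lies near −2.17 after DZNep and Romidepsin while Cyba lies at −0.54 and −0.45. Ncf4 was too low to be tested after UNC1999.

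Of the syntrophin and dystrophin list, 13 genes beside Sntg2 were tested after UNC1999, and Sntb2 (0.88, SE 0.141) and Dmd (0.75, SE 0.119) rose, each with an adjusted p = 0.0471 by the quasi-likelihood test. Of all genes, 0.602% had an adjusted p under 0.05 there. The same pair was higher after DZNep, at 0.94 and 0.58, and Sntg1 and Dtna lower, all at an adjusted p under 0.05. In all, 3 of 13 were higher and 2 lower, where 22.7% of all genes passed in either direction. After Romidepsin 0 of these 13 passed. Dmd encodes dystrophin, Sntb2 is a syntrophin and Dtna a dystrobrevin. Of 21 other polarity genes tested after DZNep, 6 were higher and 2 lower at an adjusted p under 0.05, where 22.7% of all genes passed in either direction, with Crb2, a Crumbs protein of photoreceptors, at 0.77 as the largest. Of 12 other dynein adaptors and partners, 6 were higher and 2 lower after DZNep, beside the same 22.7% of all genes, Hook3 (0.59) the most. After Romidepsin, UNC1999, UNC0642 and GSK2879552, 0 of these polarity and adaptor genes passed. In the SLCO list 0 of the other genes tested passed in any of the 5 experiments.

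By the root mean square difference of the log2 fold changes over the 5 experiments, among 13028 genes tested in all, Arl4d and Sntg2 were each other's nearest gene (0.0907), and the nearest gene to Apobec2 was Llgl2 (0.161). The DZNep and Romidepsin values that the members were picked for enter this distance, so nearness between members follows in part from the choice. Llgl2 lay nearest to Rbp3 (0.11), which encodes the retinoid-binding protein of the photoreceptor matrix, Slco4a1 to Gm13066 (0.0651) and Ccdc64 to Tcp11 (0.0466). Tcp11 had log2 fold changes of 1.03, 1.13, 0.71, 0.06 and 0.65 after DZNep, Romidepsin, UNC1999, UNC0642 and GSK2879552. For the 3 genes too low to be tested in rods, 15374 genes were compared over the 4 retina experiments. Igfbp3 lay nearest to Adamts19 (0.148), a secreted protease, Cyp4f14 to Oasl1 (0.171), an interferon-induced gene, and Cybb to Ms4a6c (0.350), a gene of myeloid cells. The nearest gene to Cybb was the least alike, with −2.21, −1.59, −2.66 and −0.98 in the order of the retina experiments above.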

How the data were processed

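RNA was sequenced from 22 whole retinas and 4 samples of sorted rods. The authors trimmed reads with BBDuk, aligned them to NCBIM37 (mm9) with HISAT2 2.2.1 and deposited raw counts per gene (37991 Ensembl genes) from HTSeq 0.11.2. Whether counting used strand, and whether a library holds 1 mouse or several, are not given in the sources used here, so p-values measure the spread between these samples. Symbols were matched for 37205 identifiers.

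Each experiment was fitted against its own controls on all genes with edgeR 4.0.16 (filterByExpr, TMM, glmQLFit and glmQLFTest, R 4.3.3), with Benjamini-Hochberg adjustment. DESeq2 1.42.0, the likelihood ratio test, RLE scaling, other filters, a replicate block, a fit of all retinas and leaving out each library were alternatives. The scripts were tested on simulated data. The named genes are the 9 members, their families, cell type markers and, for each member, the gene with the most similar log2 fold changes. Members and lists were chosen with earlier results of these data known. All 23 pairs of replicates differed by more than the sampling noise. Values of a few genes of these lists are not reported here.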

Additional observations from a re-analysis of the deposited data

How the results depend on the processing

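In the DZNep and Romidepsin experiments, each member kept its direction under every alternative run. Nothing is read from that, since the members were picked for their changes in these same libraries. Leaving out 1 library took some under the log2 fold threshold of 1, such as Apobec2 at 0.89 after Romidepsin and Cyp4f14 at −0.96 after DZNep. Without a fold threshold, 3734 genes passed after DZNep instead of 281, and leaving out 1 library gave 196 to 335. After Romidepsin the likelihood ratio test called 498 genes, DESeq2 387, no filter on low counts 367 and a fit of all 22 retinas 520, against 90, and leaving out 1 library gave 0 to 338. After UNC1999 the count of 58 became 469, 354, 342 and 437 under the same alternatives, with 2 members in each, 95 with 1 member without a fold threshold, and 21 with the replicate block, and leaving out 1 library gave 4 to 806 genes and 0 to 3 members, the highest of both without control replicate 3. After UNC0642 the likelihood ratio test called 34 genes, DESeq2 4, no filter 173, the replicate block 124 and the fit of all retinas 3, against 0, and leaving out 1 library gave 0 to 99. In rods the likelihood ratio test called 68 genes, DESeq2 47, no filter 168 and the replicate block 3, against 0, and leaving out 1 library gave 0 to 210. No member passed both thresholds under any alternative run after UNC0642 or in rods. The replicate block gave Slco4a1 an adjusted p = 0.0527 after UNC1999, and Arl4d 0.0379 and Cybb 0.00414 after UNC0642, where no filter on low counts gave Arl4d 0.00485 and Slco4a1 0.0426, by edgeR's quasi-likelihood test. Over all their UNC0642 alternatives the adjusted p ran from 0.00485 to 0.764 for Arl4d, 0.0426 to 0.816 for Slco4a1 and 0.00414 to 0.972 for Cybb. Deviations of same-number samples correlated by −0.396 to 0.288 in the experiments of 3 against 3, by 0.230 in both pairs of UNC0642, which are too few to show pairing, and by −0.113 in rods. The numbers are not taken as pairs, and the rods were also fitted with crossed numbers, an alternative chosen after seeing the data, with 0 genes called.

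Leaving out 1 library reversed signs of small values. Igfbp3 after UNC1999 ran from −0.16 (without treated replicate 3) to 0.60, and was −0.01 without control replicate 3. Ccdc64 after UNC0642 ran from −0.10 (without treated replicate 2) to 0.20, and was −0.000678 without control replicate 1. In rods, Apobec2 ran from −0.00892 to 0.79 and Arl4d from −0.0758 to 0.34, both lowest without control replicate 1. The difference of UNC1999 and UNC0642 effects for Igfbp3 ran from −0.44 to 0.31, and was positive without UNC0642 control replicate 2 (0.03) or UNC1999 control replicate 1 (0.31), treated replicate 1 (0.06) or treated replicate 2 (0.09). The cause was not tested. With 2 or 3 libraries a group, an exact permutation test cannot go below 0.333 or 0.10. Cybb and Cyp4f14 rest on few counts in treated retinas, which limits their precision.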
